A study of Homo sapiens with 6 samples.

Results

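The proteasome genes were defined by symbol, as every gene of the deposited table named PSMA to PSMG followed by a number, and their RNA was compared between LAPTM4B knockdown and control cells. The rule took 48 of 61806 genes: 19 core genes (PSMA and PSMB), 20 cap genes (PSMC and PSMD), 4 activators (PSME), the regulator PSMF1 and 4 assembly factors (PSMG). By the labels, the RNA came from HepG2, a human liver cancer cell line in wide use, also described there as CD133+. There were 3 libraries titled 133G2-shLAP, with the genotype label LAPTM4B knockdown, and 3 titled 133G2-NC, with the genotype label WT. Total RNA was used in both groups, and the labels give no time, no culture and no number of clones. Since nothing states that the libraries of a group were grown separately, the p-values speak of the spread between these 3 libraries, which could be technical. In RNA of whole cell populations, fewer cells of a kind and less RNA per cell cannot be told apart.

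The proteasome degrades proteins that carry chains of ubiquitin. Its barrel-shaped 20S core is built of stacked rings of alpha subunits (PSMA) and beta subunits (PSMB), and 3 of the beta subunits, PSMB5, PSMB6 and PSMB7, carry the proteolytic sites. The 19S cap, made of the ATPases PSMC and the non-ATPases PSMD, binds ubiquitin chains, unfolds the substrate and feeds it into the core, and core and cap together form the 26S proteasome. In cells exposed to interferon, PSMB8, PSMB9 and PSMB10 take the places of PSMB5, PSMB6 and PSMB7 and form the immunoproteasome, which is known for producing peptides for MHC class I. Many cancer cells depend on the proteasome to clear misfolded proteins, and genes of the complex are often transcribed together through the factor NRF1, encoded by NFE2L1.

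Gene counts summed to between 15204269 and 16303949 in knockdown libraries and to between 15667396 and 19987318 in control libraries. LAPTM4B, the lysosomal membrane protein targeted here, was at 227, 237 and 232 CPM (counts scaled to a common library size with TMM factors) in knockdown libraries and at 327, 325 and 350.1 CPM in control libraries, a log2 change of -0.53 (SE 0.04, adjusted p = 3.25e-12 by edgeR). The 9 hepatocyte markers together summed to 9.18 to 9.93 CPM in knockdown libraries and 18.0 to 20.03 CPM in control libraries. ALB, APOA1 and APOB had 0 counts in all 6 libraries, and AFP had 0 to 4. FGB had 84 to 93 counts per knockdown library and 197 to 233 per control library. HNF4A had 52 to 66 per knockdown library and 62 to 104 per control library, and SERPINA1 0 to 5 and 35 to 49. PROM1, which encodes CD133, had 6 to 12 counts per knockdown library and 1 to 3 per control library. The cells are called here by their labels, which the counts of ALB, APOA1, APOB and PROM1 do not bear out. Their identity was not tested. Markers of fibroblasts summed to 14.7 to 18.0 CPM in knockdown libraries and 9.66 to 12.7 CPM in control libraries. Those of endothelium summed to 0.510 to 1.03 CPM in knockdown libraries and 1.14 to 3.11 CPM in control libraries. Among them, PDGFRB had 45 to 57 counts per knockdown library and 2 to 7 per control library, and PECAM1 had 3 and 18 to 41. COL1A1, the only other of these markers above the count filter, did not pass (edgeR adjusted p = 0.0881). The part of these markers in the results was not tested.

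Of the 31 genes for constitutive subunits of the 26S proteasome, 27 were called higher in the knockdown, by small amounts, while the immunoproteasome genes PSMB8 and PSMB9 were lower. Of the 48 genes, 46 passed the filter on low counts, and of these 33 rose, 2 fell and 11 did not pass the test (edgeR, adjusted p under 0.05). Among all 16354 genes tested 28.0% were called higher, 27.9% lower and 55.9% either, so 71.7% higher and 4.35% lower among the proteasome genes stood against a broad change of the transcriptome. The median log2 change was 0.25 for the proteasome genes and 0.01 for all genes tested. No proteasome gene changed by as much as 2-fold (a log2 change of 1), which 11.5% of all genes did. The members lay close together, with an interquartile range of log2 changes of 0.11 to 0.38, against -0.32 to 0.28 for all genes tested. A window of 0.1 to 0.5, which was not set in advance, held 34 of the 46, or 73.9%, and 28.0% of all genes tested.

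**Figure D1:**
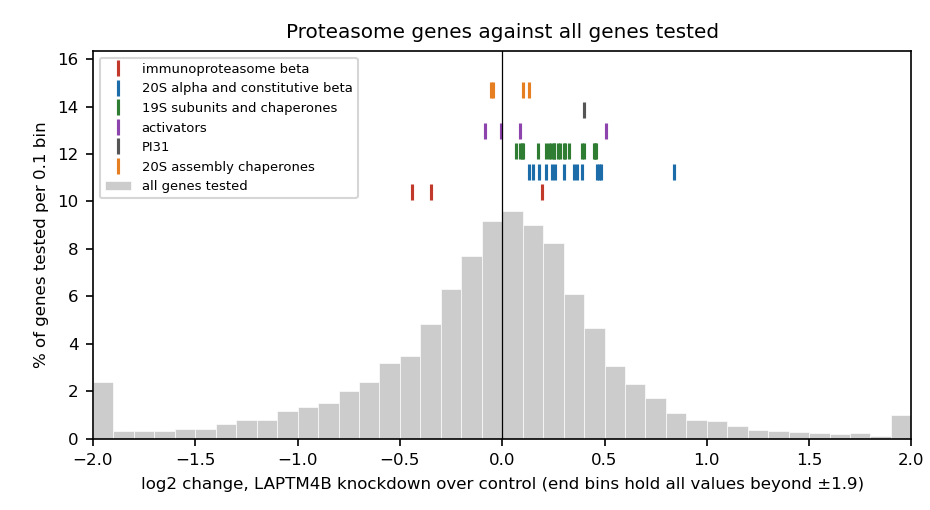
Log2 change of proteasome genes, knockdown over control (horizontal axis). Each coloured tick is 1 tested gene, in a row per role, and grey bars give the percentage of all 16354 tested genes in bins of 0.1. The ticks of constitutive core and cap genes lie to the right of 0, and those of PSMB8 and PSMB9 at -0.35 and -0.44.

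Summed over all members, the level was 5428, 5535 and 5524 CPM in knockdown libraries, against 4407, 4461 and 4636 CPM in control libraries. Every knockdown library was above every control library, and the members held 0.551% to 0.566% of all counts in the knockdown and 0.431% to 0.449% in control cells. The values of 39 of the 46 tested genes did not overlap between the groups, compared with 60.4% of all genes tested, and for 37 of the 46 every knockdown library was the higher, compared with 30.7%.

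**Figure D2:**
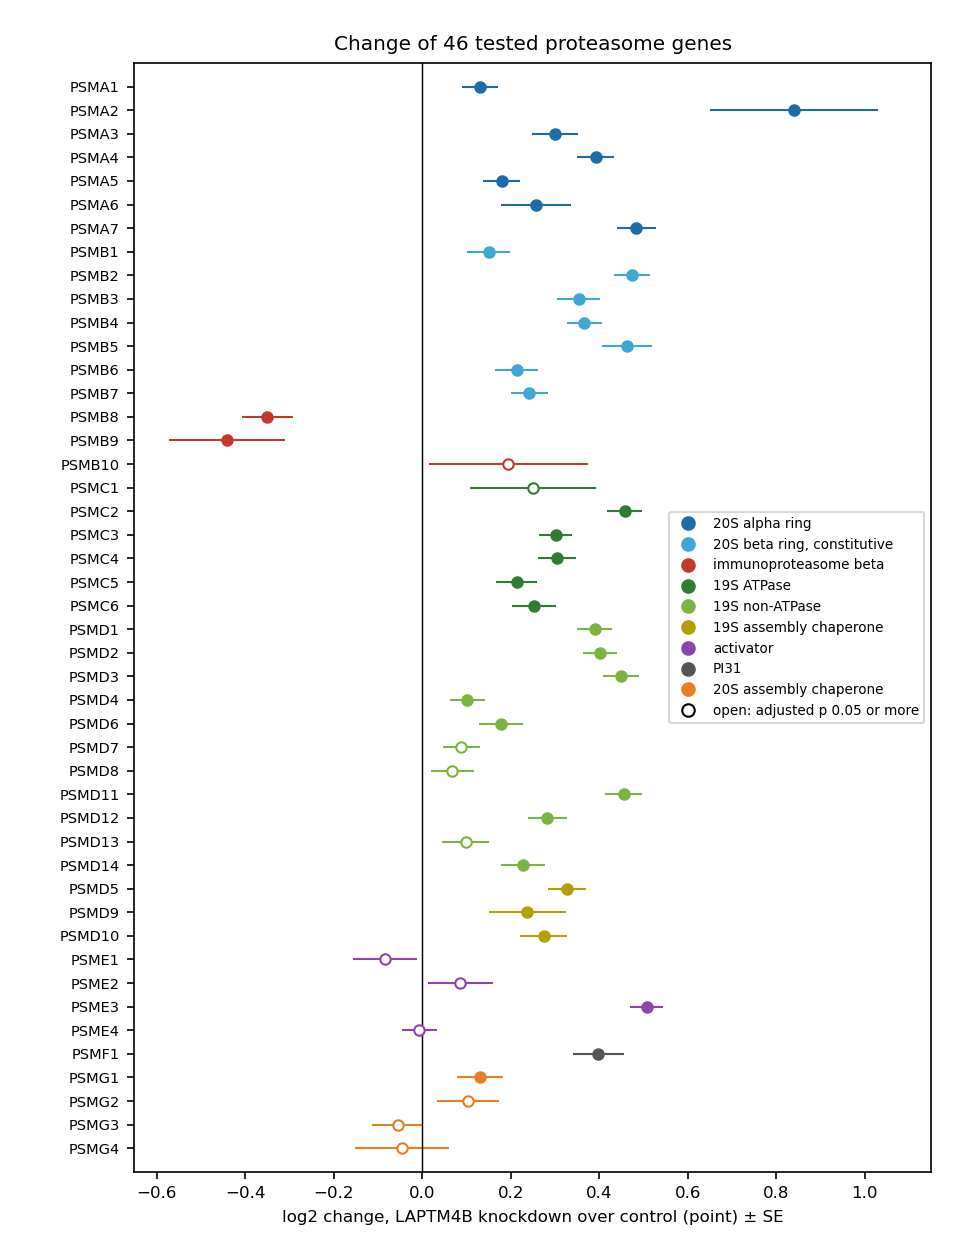
Log2 change, knockdown over control, of each of the 46 tested proteasome genes (point) with its SE (bar), ordered and coloured by role. Filled points passed the edgeR test at an adjusted p under 0.05. All alpha and constitutive beta genes are filled and to the right of 0, PSMB8 and PSMB9 are filled and to the left, and most activators and assembly factors are open.

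The alpha ring forms the gate through which substrates enter the core. All 7 of its broadly expressed genes, PSMA1 to PSMA7, rose, with log2 changes of 0.13 to 0.84 and a median of 0.30. PSMA7 (chromosome 20, 62136733 to 62143440, hg38) was at 226, 249.5 and 249 CPM in knockdown libraries and at 164, 173 and 181 CPM in control libraries. Its lowest knockdown library was above its highest control library, and the log2 change was 0.48 (SE 0.04, adjusted p = 4.37e-10 by edgeR). PSMA4 reached 194 ± 8.93 CPM in the knockdown and 148 ± 4.70 CPM in control cells (SD, n = 3 each), a 1.31-fold difference (edgeR adjusted p = 7.33e-09).

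The largest fitted alpha change belonged to PSMA2 (chromosome 7, 42916828 to 42932185), with a log2 change of 0.84 (SE 0.19, adjusted p = 4.91e-04 by edgeR). It was at 5.48, 6.14 and 5.92 CPM in knockdown libraries and at 3.17, 4.21 and 2.53 CPM in control libraries. The groups did not overlap, but the gene rested on 49 to 99 counts per library and lay far below its partners in the ring: per exonic length and library size, as deposited in FPKM, it averaged 0.710 FPKM in the knockdown and 0.387 FPKM in control cells, where PSMA1 was at 42.7 FPKM in the knockdown and 37.4 FPKM in control cells. The exonic length deposited for PSMA2 was 8378 bases. Its exons share 781 bases with ENSG00000256646 on the same strand, which had 1 to 9 counts per library, and 1043 bases with ENSG00000234983 on the other strand, which had 0. They also share 24 bases with MRPL32 on the other strand, which had 768 to 973 counts per library. How reads shared with other loci were counted is not given, so the levels of PSMA2 and PSMA6 are uncertain. PSMA6 was also low, at 5.13 FPKM in the knockdown and 4.13 FPKM in control cells, and shares 919 exon bases with ENSG00000258790 on its strand, which had 0 to 6 counts. PSMA3 and PSMA5 rose 1.23-fold and 1.13-fold. The PSMA2 call was lost with limma on log2(FPKM + 0.1) without a filter (adjusted p = 0.0951). PSMA6 lost its call there too (adjusted p = 0.0655) and with edgeR without knockdown replicate 2 (adjusted p = 0.0555), and PSMA1 with edgeR without control replicate 1 (adjusted p = 0.0722).

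All 7 constitutive beta genes rose as well, with log2 changes of 0.15 to 0.47 and a median of 0.35. PSMB2, a structural subunit (chromosome 1, 35599541 to 35641526), was at 267, 254 and 250.4 CPM in knockdown libraries and at 181, 179 and 195 CPM in control libraries. The groups were well apart, with a log2 change of 0.47 (SE 0.04, adjusted p = 1.33e-10 by edgeR). PSMB4 and PSMB3, also structural, rose 1.29-fold and 1.28-fold. PSMB1 was the least changed at 103 ± 3.54 CPM in the knockdown and 92.9 ± 5.47 CPM in control cells (SD, n = 3 each, adjusted p = 0.00995 by edgeR). PSMB1 did not pass with DESeq2 (adjusted p = 0.062), nor with edgeR without knockdown replicate 3 (0.0698), control replicate 1 (0.118) or control replicate 2 (0.0623).

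In 2 of the 3 pairs of proteolytic subunits, the constitutive form rose and the interferon-inducible form fell. PSMB5, which carries the chymotrypsin-like site, was at 67.8, 73.9 and 72.9 CPM in knockdown libraries and at 47.9, 55.3 and 52.8 CPM in control libraries. It rose 1.38-fold (log2 change 0.46, SE 0.06, adjusted p = 1.17e-07 by edgeR). PSMB8, its immunoproteasome counterpart (chromosome 6, 32840717 to 32844679), was at 42.6, 46.05 and 46.7 CPM in knockdown libraries, against 59.8, 55.5 and 57.0 CPM in control libraries. All knockdown libraries lay below all control libraries, and the log2 change was -0.35 (SE 0.06, adjusted p = 9.33e-06 by edgeR).

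PSMB6, the subunit with the caspase-like site, was at 88.9, 85.1 and 94.5 CPM in knockdown libraries and at 75.8, 75.6 and 80.1 CPM in control libraries, a 1.16-fold rise (edgeR adjusted p = 6.13e-04). Its counterpart PSMB9 (chromosome 6, 32844136 to 32859851) was at 8.35, 6.73 and 6.46 CPM in knockdown libraries and at 9.95, 9.53 and 9.72 CPM in control libraries. The knockdown libraries were all lower, by a log2 change of -0.44 (SE 0.13, adjusted p = 0.00603 by edgeR), a call lost with limma on log2(FPKM + 0.1) without a filter (adjusted p = 0.0521). PSMB7, with the trypsin-like site, was at 225, 239 and 236 CPM in knockdown libraries and at 188, 194 and 209 CPM in control libraries, 1.18-fold higher (edgeR adjusted p = 1.49e-05). PSMB10, which replaces it, was at 4.91, 4.72 and 4.01 CPM in knockdown libraries and at 3.89, 4.15 and 3.88 CPM in control libraries. The groups of PSMB10 overlapped and it did not pass the test (log2 change 0.19, SE 0.18, adjusted p = 0.372 by edgeR). It had 64 to 77 counts per library to go by. PSMB10 shares 644 exon bases (34.8%) with ENSG00000261884 on its strand. That gene had 37, 55 and 44 counts in knockdown libraries and 30, 14 and 30 in control libraries. How shared reads were counted is not given, so the level of PSMB10 and its ratio to PSMB7 are uncertain.

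**Figure D3:**
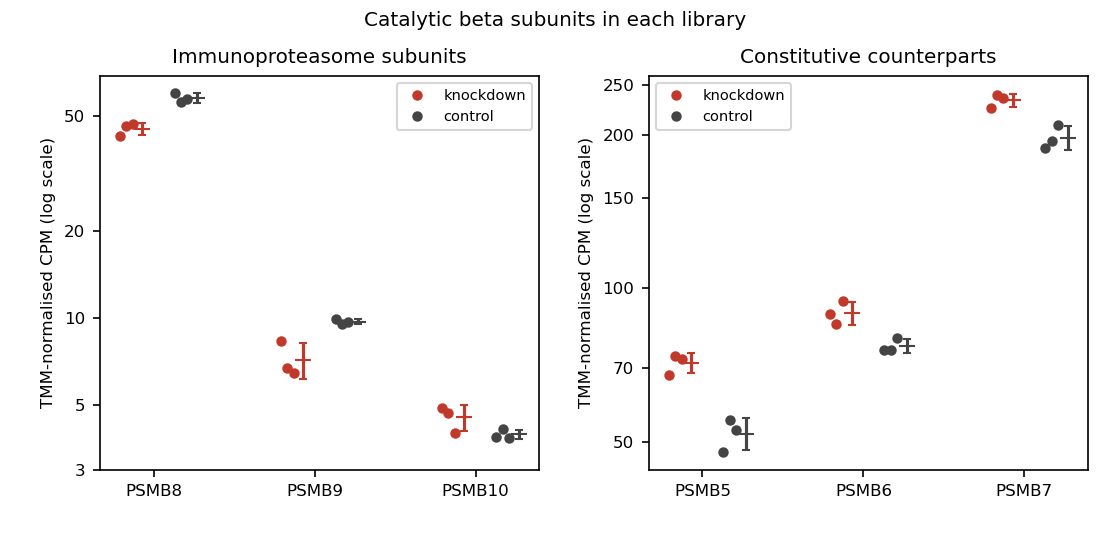
TMM-normalised CPM (log scale) of the immunoproteasome subunits (left) and their constitutive counterparts (right) in each library (points), with the mean and SD of 3 libraries (bars), knockdown left of control for each gene. PSMB8 and PSMB9 are lower and PSMB5, PSMB6 and PSMB7 higher in the knockdown, without overlap, and the PSMB10 groups overlap.

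The ratio of each pair inside a library does not depend on how libraries were scaled. On the FPKM scale, PSMB8 stood at 28.0%, 27.8% and 28.5% of PSMB5 in knockdown libraries and at 55.6%, 44.7% and 48.0% in control libraries. PSMB9 stood at 4.07%, 3.43% and 2.96% of PSMB6 in knockdown libraries, against 5.70%, 5.46% and 5.26% in control libraries. Both ratios were lower in every knockdown library than in any control library. The log2 differences were -0.81 for PSMB8/PSMB5 and -0.66 for PSMB9/PSMB6, each with p = 0.10 in a two-sided exact permutation test (n = 3 each) and 0.15 after Benjamini-Hochberg adjustment over the 3 ratios; 0.10 is the smallest p that this design allows. PSMB10 stood at 2.15% ± 0.265 of PSMB7 in the knockdown and 2.22% ± 0.16 in control cells (SD, n = 3 each; exact permutation p = 0.70). In both groups the constitutive subunits were thus the more abundant transcripts, per length, in all 3 pairs. The 7 constitutive beta genes summed to 562, 579 and 590 FPKM in knockdown libraries and to 433, 436 and 462 FPKM in control libraries. The 3 immunoproteasome genes summed to 18.04, 18.46 and 18.26 FPKM in knockdown libraries and to 22.08, 21.04 and 20.97 FPKM in control libraries.

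**Figure D4:**
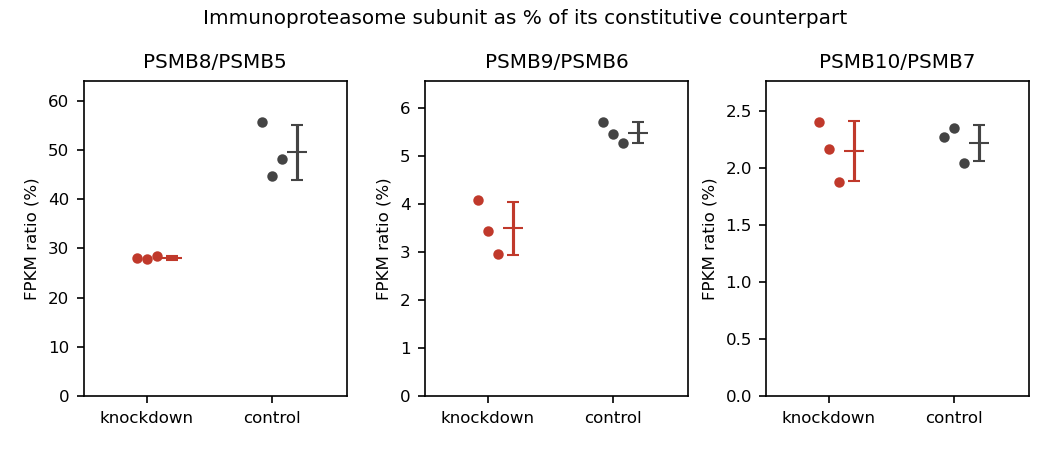
FPKM of each immunoproteasome subunit as a percentage of its constitutive counterpart, in each library (points), with the mean and SD of 3 libraries (bars), knockdown left of control. PSMB8/PSMB5 averages 28.1% in the knockdown and 49.5% in control cells, and PSMB10/PSMB7 averages 2.15% in the knockdown and 2.22% in control cells.

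PSMB8 and PSMB9 lie side by side on chromosome 6, and 139 bases of their annotated exons overlap. PSMB8 also shares 618 exon bases with the antisense gene PSMB8-AS1, which had 41, 39 and 39 counts in knockdown libraries and 87, 73 and 105 in control libraries. Whether counting used strand is not given, so these reads and those of PSMB8 cannot be told apart. The deposited count of PSMB8 was 668 to 1102 per library. The part of PSMB8-AS1 reads in the fall of PSMB8 was not tested. PSMB9, with 104 to 188 counts, shares 174 exon bases with PSMB8-AS1 on its own strand besides the 139 shared with PSMB8, so its level is the less certain of the pair. Immunoproteasome genes are abundant in leukocytes. Of 7 leukocyte markers, LYZ had 0 counts in all 6 libraries, CD3E had at most 1 and PTPRC, which encodes CD45, at most 3, and the summed level was 1.36 to 2.17 CPM in knockdown libraries and 2.22 to 2.34 CPM in control libraries. The tissue-restricted core genes PSMA8, of the testis, and PSMB11, of the thymus, had 0 counts in all 6 libraries, a depth at which 3 counts in a library, the upper limit that 0 counts allow, equal 0.155 to 0.194 CPM.

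Promoter sequences are shown for the 3 immunoproteasome genes, for PSMB5 as a constitutive counterpart, and for PSMC2 and PSME3, the most increased ATPase and activator. Each is the 250 bases before the RefSeq gene start (GRCh38.p14), 5′ to 3′ on the gene's strand. Capitals mark matches on either strand to TGACNNNGC (core of the antioxidant response element bound by NRF1 and NRF2), GAAA followed after any 2 bases by a second GAAA (core of the interferon-stimulated response element) or CCAAT (bound by NF-Y).
PSMB5 (chr14:23035221-23035470, - strand): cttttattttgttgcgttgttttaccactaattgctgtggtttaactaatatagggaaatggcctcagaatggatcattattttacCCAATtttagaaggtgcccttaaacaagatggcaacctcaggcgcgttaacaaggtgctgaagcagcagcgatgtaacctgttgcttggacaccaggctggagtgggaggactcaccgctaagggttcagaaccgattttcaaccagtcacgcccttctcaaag
PSMB8 (chr6:32844680-32844929, - strand): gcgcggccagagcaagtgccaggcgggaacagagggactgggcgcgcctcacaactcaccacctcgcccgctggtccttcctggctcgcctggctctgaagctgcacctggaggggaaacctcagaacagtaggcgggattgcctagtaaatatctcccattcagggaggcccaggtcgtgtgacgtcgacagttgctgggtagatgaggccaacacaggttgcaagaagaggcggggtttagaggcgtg
PSMB9 (chr6:32853942-32854191, + strand): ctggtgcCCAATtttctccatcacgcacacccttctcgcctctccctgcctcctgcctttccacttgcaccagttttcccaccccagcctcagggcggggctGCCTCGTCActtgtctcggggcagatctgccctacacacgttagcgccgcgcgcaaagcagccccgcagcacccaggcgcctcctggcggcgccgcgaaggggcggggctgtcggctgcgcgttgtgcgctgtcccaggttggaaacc
PSMB10 (chr16:67936851-67937100, - strand): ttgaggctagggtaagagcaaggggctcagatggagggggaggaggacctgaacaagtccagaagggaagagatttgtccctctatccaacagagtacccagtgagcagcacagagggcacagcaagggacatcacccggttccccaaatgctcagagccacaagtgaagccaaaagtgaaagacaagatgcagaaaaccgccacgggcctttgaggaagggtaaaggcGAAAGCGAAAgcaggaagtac
PSMC2 (chr7:103347393-103347642, + strand): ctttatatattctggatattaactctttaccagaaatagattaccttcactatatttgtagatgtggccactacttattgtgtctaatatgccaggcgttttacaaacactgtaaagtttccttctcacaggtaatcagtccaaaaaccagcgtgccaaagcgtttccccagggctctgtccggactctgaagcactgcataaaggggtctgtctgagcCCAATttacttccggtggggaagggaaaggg
PSME3 (chr17:42833147-42833396, + strand): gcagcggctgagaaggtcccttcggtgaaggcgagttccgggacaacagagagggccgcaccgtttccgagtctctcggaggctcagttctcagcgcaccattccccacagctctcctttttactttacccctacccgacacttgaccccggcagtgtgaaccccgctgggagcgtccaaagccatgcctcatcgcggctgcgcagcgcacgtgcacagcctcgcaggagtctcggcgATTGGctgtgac
The single match to the interferon-stimulated element among the immunoproteasome genes was in PSMB10, just before its start, and PSMB8 held none of the 3 motifs in this window. The matches printed here do not overlap each other. For PSMB9, PSMC2 and PSME3, and only slightly for PSMB5 and PSMB10, the RefSeq start lies inside the longer gene interval of the deposited table.

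Of the 48 genes, 42 had an entry among these promoters; PSMA7, PSMB1, PSMB6, PSMB7, PSMD4 and PSMG3 had none. CCAAT was found in 14 of the 28 promoters of genes that rose (50%) and in 13 of the 26 of constitutive 26S subunits, against 32% of 35116 promoters of all genes in a window of the same length. TGACNNNGC was in 6 of those 28 (21.4%), against 10.9% of all promoters, but in only 3 of the 26 promoters of constitutive 26S subunits (11.5%), and the interferon-stimulated core in 2 (7.1%), against 3.0%. The 12 promoters of genes not called or not tested held TGACNNNGC in 4 cases, and CCAAT and the interferon-stimulated core in 3 cases each. A match describes the letters and is not a site. No test was made of these shares.

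The ATPases of the cap use ATP to unfold substrates and open the core. All 6 had positive log2 changes and 5 rose, with a median log2 change of 0.28 over the 6. PSMC2 (chromosome 7, 103328570 to 103370346) was at 183, 183 and 188 CPM in knockdown libraries and at 136, 138 and 129.6 CPM in control libraries. Its libraries varied little within a group, and the log2 change was 0.46 (SE 0.04, adjusted p = 1.67e-10 by edgeR). PSMC3, the most abundant ATPase transcript per length, averaged 144 FPKM in the knockdown and 112 FPKM in control cells and rose 1.23-fold, PSMC4 rose 1.24-fold, PSMC6 1.19-fold and PSMC5 1.16-fold. PSMC5 shares 874 exon bases with FTSJ3 on the other strand, which had 1827 to 2255 counts per library.

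PSMC1 was the ATPase gene that did not pass (log2 change 0.25, SE 0.14, adjusted p = 0.14 by edgeR). It was at 8.35, 7.83 and 7.06 CPM in knockdown libraries and at 6.78, 6.999 and 5.79 CPM in control libraries, which did not overlap. Its processed pseudogene PSMC1P1 had more counts than the gene itself, at 27.3, 26.1 and 23.4 CPM in knockdown libraries and at 17.8, 19.96 and 17.6 CPM in control libraries. With the counts of members' pseudogenes added to their parent genes, a choice made after seeing the data, PSMC1 rose by a log2 change of 0.42 (SE 0.08, adjusted p = 4.71e-05 by edgeR). In addition, 75.8% of the exon bases of PSMC1 are also exon of NRDE2 on the other strand, which had 262 to 395 counts per library, so the level of PSMC1 is uncertain.

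The non-ATPase subunits hold the ubiquitin receptors, the deubiquitinase and the scaffold of the cap. Of 11, 8 rose and 3 did not pass; all 11 log2 changes were positive, with a median of 0.23. PSMD11, a scaffold subunit (chromosome 17, 32444379 to 32483319), was at 218, 213 and 218 CPM in knockdown libraries and at 148, 156 and 168 CPM in control libraries. It had the largest log2 change of the 11, at 0.46 (SE 0.04, adjusted p = 6.77e-10 by edgeR), close to PSMD3 at 0.45. The large scaffold subunits PSMD2 and PSMD1 rose 1.32-fold and 1.31-fold, PSMD12 1.22-fold and PSMD6 1.13-fold. PSMD14, the deubiquitinase that removes ubiquitin chains as the substrate enters, was at 108 ± 6.46 CPM in the knockdown and 91.9 ± 4.64 CPM in control cells (SD, n = 3 each, adjusted p = 3.51e-04 by edgeR).

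The ubiquitin receptor PSMD4 was at 150.4, 156 and 161 CPM in knockdown libraries and at 146, 146 and 144 CPM in control libraries, a rise of 1.07-fold that passed narrowly (edgeR adjusted p = 0.0317). Its call was lost under 7 of 16 alternatives, with adjusted p up to 0.154 with edgeR without knockdown replicate 3. PSMD7, PSMD8 and PSMD13 were at 122, 131 and 65.7 CPM in the knockdown and at 115, 124 and 61.4 CPM in control cells (edgeR adjusted p = 0.0746, 0.247 and 0.124). PSMD7 is the partner of PSMD14 in the lid of the cap. PSMD8 passed under 2 of the alternatives, without control replicate 3 (edgeR adjusted p = 0.0177) and with library totals only (0.0219). PSMD7 and PSMD13 passed under 4 and 3 of the alternatives.

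PSMD5, PSMD9 and PSMD10 share the family name but act as chaperones in the assembly of the ATPase ring. All 3 rose, with log2 changes of 0.24 to 0.33. PSMD5 was at 141, 149 and 153 CPM in knockdown libraries and at 114, 121 and 118 CPM in control libraries, a log2 change of 0.33 (SE 0.04, adjusted p = 2.77e-07 by edgeR). PSMD10, also known as gankyrin and first described as an oncoprotein of hepatocellular carcinoma, was at 61.5 ± 2.27 CPM in the knockdown and 50.8 ± 0.522 CPM in control cells (SD, n = 3 each, adjusted p = 8.01e-05 by edgeR). PSMD9 rose 1.18-fold (edgeR adjusted p = 0.0227), a call that DESeq2 did not make (adjusted p = 0.12). Nor did edgeR without knockdown replicate 2 (0.0524), knockdown replicate 3 (0.0549) or control replicate 2 (0.0974). PSMD9, with 253 to 345 counts per library, shares 436 exon bases with CFAP251 on its strand. CFAP251 had 53, 48 and 57 counts in knockdown libraries and 19, 22 and 27 in control libraries. The part of these reads in the rise of PSMD9 was not tested.

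**Figure D5:**
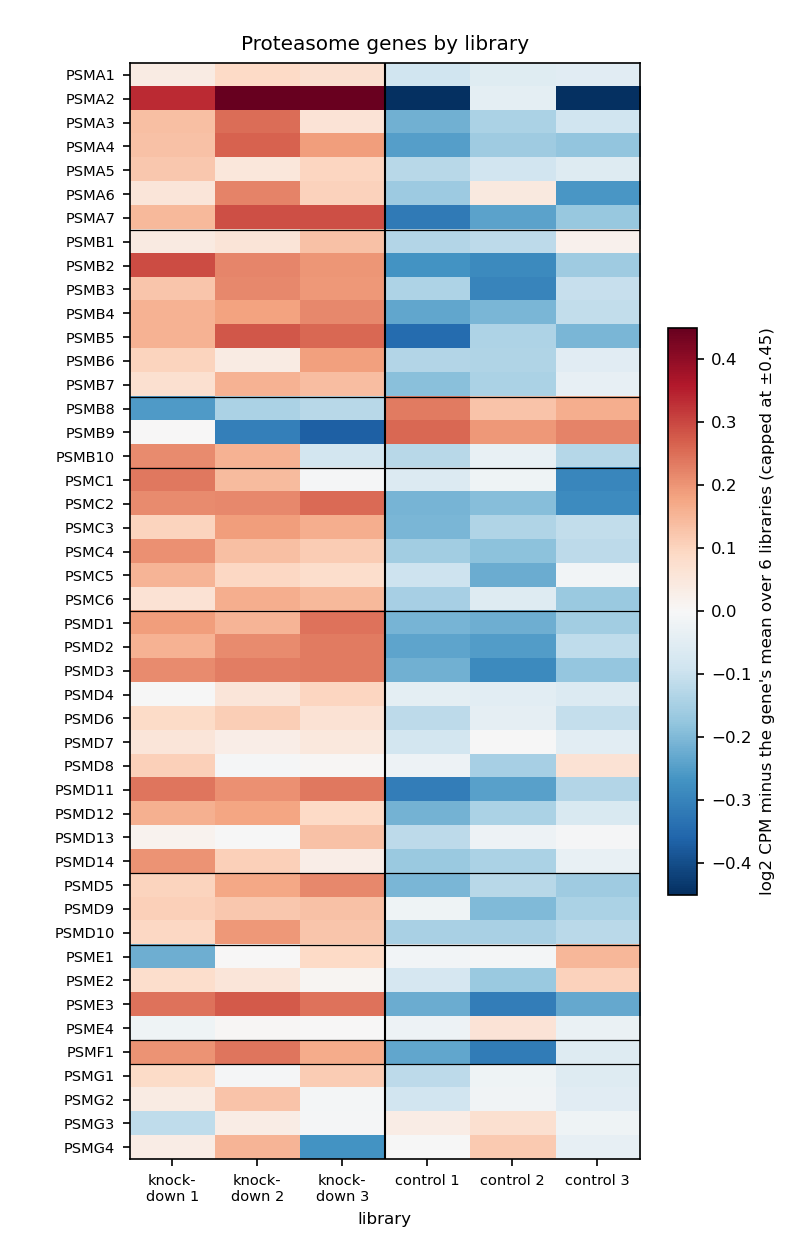
Level of each tested proteasome gene (rows, by role) in each library (columns), as log2 CPM minus the mean of the gene over the 6 libraries, capped at ±0.45. Knockdown columns are mostly red and control columns mostly blue from PSMA1 to PSMD10, with PSMB8 and PSMB9 the other way round, and the contrast is weak for PSME1, PSME2, PSME4 and PSMG1 to PSMG4.

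Activators other than the 19S cap also dock onto the core, and of the 4 PSME genes 1 rose and 3 did not pass. PSME3, the nuclear activator PA28 gamma (chromosome 17, 42824385 to 42843760), was at 239.6, 245 and 239.5 CPM in knockdown libraries and at 173, 163 and 173 CPM in control libraries. The groups were far apart relative to their spread, with a log2 change of 0.51 (SE 0.04, adjusted p = 8.14e-12 by edgeR). PSME1 and PSME2, which encode the interferon-inducible PA28 alpha and beta, were at 38.8 ± 4.21 and 33.3 ± 0.848 CPM in the knockdown and at 41.1 ± 2.67 and 31.3 ± 3.02 CPM in control cells (SD, n = 3 each; edgeR adjusted p = 0.340 and 0.332). PSME4, which encodes PA200, was at 153, 156 and 156 CPM in knockdown libraries and at 153, 162 and 152 CPM in control libraries (log2 change -0.01, SE 0.04, adjusted p = 0.909 by edgeR). PSMF1, which encodes the core-binding protein PI31, was at 75.5, 77.5 and 73.7 CPM in knockdown libraries and at 55.8, 52.7 and 63.0 CPM in control libraries, a log2 change of 0.40 (SE 0.06, adjusted p = 1.47e-06 by edgeR).

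The PSMG genes encode chaperones that pair up to help build the alpha ring. Only PSMG1 passed, at 69.7, 65.5 and 71.1 CPM in knockdown libraries and 60.6, 64.9 and 63.1 CPM in control libraries (log2 change 0.13, SE 0.05, adjusted p = 0.0338 by edgeR). The gap between the groups was small, and PSMG1 did not pass with DESeq2 (adjusted p = 0.154), nor with edgeR without a count filter (0.0663), knockdown replicate 1 (0.0934), knockdown replicate 3 (0.136) or control replicate 1 (0.20). PSMG2, PSMG3 and PSMG4 had log2 changes of 0.10, -0.06 and -0.04 (edgeR adjusted p = 0.214, 0.437 and 0.743). The chaperone POMP, which acts beside them in core assembly and was named after its values were seen, was at 69.9, 77.7 and 75.9 CPM in knockdown libraries and at 61.1, 61.4 and 63.4 CPM in control libraries and rose 1.20-fold (adjusted p = 8.81e-05 by edgeR).

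Other genes of the ubiquitin-proteasome pathway were read from 5 lists, to be set against the 28.0% of all genes tested that were called higher and the 27.9% called lower. Among 11 components and assembly factors without a PSM symbol, 7 rose, 2 fell and 2 did not pass (median log2 change 0.17). TXNL1, a thioredoxin-like protein bound to the cap, was at 90.7 ± 1.78 CPM in the knockdown and 57.8 ± 2.38 CPM in control cells (SD, n = 3 each), a log2 change of 0.65 (SE 0.05, adjusted p = 1.31e-11 by edgeR). ZFAND5, which activates the proteasome, rose 1.30-fold and the cap-bound deubiquitinase USP14 by a log2 change of 0.32. The 2 that fell were named after their values were seen. PAAF1, a chaperone of the ATPase ring, had a log2 change of -0.42 and the deubiquitinase UCHL5 one of -0.15. The UCHL5 call was lost under 5 of 16 alternatives. Among them were library totals only (edgeR adjusted p = 0.0686), edgeR without knockdown replicate 3 (0.0523) and each limma fit. PAAF1 lost its call with limma on log2(FPKM + 0.1) without a filter (adjusted p = 0.0592). Among 6 ubiquitin genes and ubiquitin-activating enzymes, UBB rose 1.12-fold, UBA6 fell by 0.41 on the log2 scale and 4 did not pass. UBA1, the main activating enzyme, was among those 4 (edgeR adjusted p = 0.0791). It passed under 6 of 16 alternatives, among them edgeR without control replicate 3 (0.0018) and with library totals only (0.00118). The 5 shuttle factors carry ubiquitinated proteins to the proteasome. Of these, RAD23B rose 1.18-fold, UBQLN2 rose by a log2 change of 0.20 and 3 did not pass. UBQLN1, among those 3, passed under 4 of 16 alternatives.

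A list of 9 genes held the transcription factor NRF1, genes that act on it and the related factor NRF2 (NFE2L2). Of the 9, 6 rose and 3 fell, where 55.9% of all genes tested were called in either direction, and without NFE2L2 5 of 8 rose. NFE2L1 itself, named after its values were seen, was at 245, 247 and 252 CPM in knockdown libraries and at 204, 202 and 218 CPM in control libraries (log2 change 0.25, SE 0.04, adjusted p = 3.03e-06 by edgeR). All knockdown libraries were above all control libraries, as they were for NFE2L2, which rose 1.37-fold. SEL1L and NPLOC4, which act in the extraction of proteins from the endoplasmic reticulum, rose 1.28-fold and 1.24-fold. The protease DDI2 and the glycosidase NGLY1, both of which process NRF1 and were named after their values were seen, fell by 0.20 and 0.30 on the log2 scale. The DDI2 call was lost with each limma fit (adjusted p = 0.0889 with log2(FPKM + 0.1), 0.0904 with log2(FPKM + 1) and 0.175 without a filter). The call of the third gene that fell, SYVN1, likewise named after its values were seen, was lost under 9 of 16 alternatives.

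Among 7 partners and regulators of the immunoproteasome, 4 fell and 3 rose, where 55.9% of all genes tested were called in either direction, and the median log2 change was -0.15. TAP1, a subunit of the peptide transporter whose gene lies next to PSMB9, was at 58.7, 52.8 and 55.6 CPM in knockdown libraries and at 79.4, 78.1 and 74.7 CPM in control libraries (log2 change -0.47, SE 0.05, adjusted p = 1.85e-08 by edgeR). TAPBP fell by 0.54 on the log2 scale and B2M, the light chain of MHC class I, by 0.51, with no overlap between groups for either. TAP2, named after its values were seen, fell by 0.15 on the log2 scale and lost its call under 5 of 16 alternatives. Those were library totals only (edgeR adjusted p = 0.0902), edgeR without knockdown replicate 3 (0.0702) and each limma fit. Among those that rose were the transcription regulators IRF1, with a 1.47-fold change, and NLRC5, with a 1.27-fold change, both named after their values were seen.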

How the data were processed

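The deposited table gave, per the file headers, a raw count and an FPKM value for each of 61806 genes in each of 6 libraries, and gene length, summed over exons, as another deposited quantity. FPKM recomputed from count, length and library total matched 100% of the deposited FPKM values within 0.0051. Samples were grouped by their titles. The submitters' processing notes name the build hg38; the aligner, counting program, annotation and strand setting are not stated there. Exon overlap was read from GENCODE release 29, which held all 48 proteasome genes.

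The fit used edgeR 4.0.16 in R 4.3.3 (filterByExpr, TMM factors of 0.970 to 1.03, quasi-likelihood test, both directions), and p-values were adjusted by Benjamini-Hochberg across the 16354 genes that passed the filter. Each SE equals the absolute log2 change over the square root of its F statistic. Counts were simulated for this comparison and these 16354 genes. Of 50 genes changed by 0.32 on the log2 scale 68% were recovered, and of 50 changed 1.5-fold 90%, so small changes can be missed. The changed genes were drawn over a wide range of counts and given a common dispersion, so these shares do not give the recovery for proteasome genes. Levels of different genes are compared as FPKM, and the limit of 3 counts covers counting error only. Replicates differed by more than sampling noise (mean chi-square per gene 1.92 to 4.65), and the labels name no batch.

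The members and lists were chosen with earlier results of these data known. Values per library are given for LAPTM4B, for the proteolytic subunits and, in each role group, for the called members with the largest increase and decrease; of each list, up to 3 genes with the smallest p are named. Other genes were picked with their values in view. Values of some list genes are not reported here. The 16 alternatives were DESeq2 1.42.0, other scalings, no count filter, a replicate block, pseudogene counts added (chosen after seeing the data), leaving out each library, and limma 3.58.1 on log2(FPKM + 0.1) or log2(FPKM + 1).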

Additional observations from a re-analysis of the deposited data

How the results depend on the processing

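Of the 35 proteasome genes called, 27 kept their direction and call under all 16 alternative fits and 8 lost the call under at least 1; no called gene reversed. The number that rose was 29 to 37 across these fits and the number that fell 1 or 2. With limma on log2(FPKM + 0.1) without a filter, 1 proteasome gene (a core, immunoproteasome gene, PSMB8) remained lower, as PSMB9 did not pass. Of the assembly genes, 0 rose with DESeq2 or edgeR without a count filter, 2 with library totals only, and 0 to 1 when a library was left out. Of the other proteasome components, 1 fell with library totals only or limma on log2(FPKM + 0.1) or log2(FPKM + 1), 0 with limma without a filter, and 1 to 2 when a library was left out. Of the NRF1 and NRF2 genes, 1 fell with each of the limma fits. Of the ubiquitin genes, 3 rose with library totals only and with each limma fit, 2 with upper-quartile factors, and 1 to 3 when a library was left out. Over all genes, 2915 and 2925 were lower with limma on log2(FPKM + 0.1) and log2(FPKM + 1), which tested 13018 genes. The PSMB10/PSMB7 log2 difference was -0.05 and lay between -0.14 and 0.042 when a library was left out, turning to 0.042 without knockdown replicate 3. The cause of these shifts was not tested. Library totals only moved the median log2 change of all genes to 0.07 and that of the proteasome genes to 0.31. With the replicate number as a block, 33 proteasome genes rose and 2 fell, as without it. Deviations of libraries with the same number correlated at -0.05 to 0.02 across genes, and only 1 of 3 knockdown libraries correlated best with its own number. No pairing by number was thus seen, but with 3 libraries per group a weak pairing would not show. Counts of 49 to 99 for PSMA2, 64 to 77 for PSMB10 and 104 to 188 for PSMB9 limit the precision of those genes.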
